A study of Streblospio benedicti with 24 samples.

Results

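PL oocytes were compared with PP oocytes of the marine annelid Streblospio benedicti. PP females carry only alleles of the planktotrophic morph, which makes many small eggs, and PL females are the F1 daughters of a PP mother and an LL father, LL being the lecithotrophic morph, which makes few large eggs. The first letter is the maternal allele, so the mothers of both groups were of the planktotrophic morph and the PL genome received its L alleles from the father. The members were taken by the genotype in the sample labels, which gave 5 PL and 7 PP libraries, 12 of the 24 libraries of the series. The other 12 are 7 LL libraries and 5 LP libraries of the reciprocal cross, and they enter here through the shared estimate of spread and where named. PP females descended from worms of Bayonne, NJ, and PL females came from a lab cross of that line with worms from Long Beach, California. All females were reared alone so that the oocytes were unfertilized, the whole clutch of 1 female made 1 library, and RNA was taken with the Arcturus PicoPure kit and made into stranded NEB UltraII libraries.

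Some features limit these groups as models of a cross. All 5 PL libraries and PP replicate 7 carry a note of 2 technical replicates, and PP replicates 1 to 6 do not. According to the study's methods F1 libraries were sequenced apart from those of the parental morphs. The names of PL replicates 3, 4 and 5 share a stem, as do those of PP replicates 5 and 6, and what a stem stands for is not given in the sources used here. The reference genome is of the planktotrophic morph, so reads from L alleles had to align to P sequence. Few gene identifiers are paired with a name in the sources used here, so the oocyte label could not be checked against marker genes, and a gene without a stated name is given by its identifier alone.

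An oocyte is loaded by its mother with mRNA and protein that run the first cleavages, before the embryo transcribes its own genome. Planktotrophic larvae feed in the plankton, while lecithotrophic larvae live on yolk supplied in the egg. In an F1 female the oocyte is made under a heterozygous maternal genome, so its transcript levels can be set beside those of both parental morphs.

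Counts on genes ranged from 7489256 to 32251684 in PL libraries (median 11415700) and from 13125307 to 43609048 in PP libraries (median 22383713). In PP replicate 2, 66.1% of reads were not aligned. Reads set aside for low alignment quality made up 7.42% to 8.40% of each PL file and 2.29% to 6.27% of each PP file, the highest of PP being replicate 7, and their part in the differences below was not tested. Over the series they made up 6.27% to 8.85% of files with the note of 2 technical replicates and 2.29% to 5.74% of those without. The PL libraries differed by more than counting error, with a chi-square per gene of at least 60.1 in each pair. The lowest value was that of replicates 3 and 4, which share a stem. Since the chi-square measures counting error alone, it cannot show whether the clutches came from unrelated females. In root mean square difference of log2 CPM, PL replicates 3 and 4 lay 0.953 apart and PP replicates 5 and 6 0.985. Pairs without a shared stem lay at least 1.237 apart in PL and 1.215 in PP. PL replicate 5 lay 1.407 and 1.357 from replicates 3 and 4, whose stem it shares. Relatedness was not tested. The biological coefficient of variation, the relative spread between clutches beyond counting error, was 0.634 in PL and 0.791 in PP. Levels are normalized counts (scaled over the 24 libraries by the median of ratios of DESeq2) and are relative to the other transcripts of a library. A clutch was sequenced as a pool, so fewer oocytes of a stage and less of a transcript per oocyte cannot be told apart.

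The first axis of variation placed PP replicate 7 with the hybrids. In a principal component analysis of the 500 most variable genes, PC1 held 40.4% of the variance, and PP replicates 1 to 6 scored from -42.4 to -24.8 while the PL libraries scored from 29.6 to 40.7. PP replicate 7 scored 32.4, inside the PL range. PC2 held 14.8% of the variance and spread the PL clutches from -28.7 in replicate 2 to 40.0 in replicate 5. Over all 10782 genes tested the placing was less clear. The root mean square difference in log2 CPM between PP replicate 7 and a PL library ranged from 1.34 to 1.55 (median 1.48), and that between PP replicate 7 and another PP library from 1.49 to 2.02 (median 1.56). PP replicates 1 to 6 lay between 1.40 and 2.21 from the PL libraries (median 1.70). Genotype and the note of 2 technical replicates coincide in 11 of the 12 libraries and cannot be told apart there, and each changed gene was read against PP replicate 7.

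**Figure D1:**
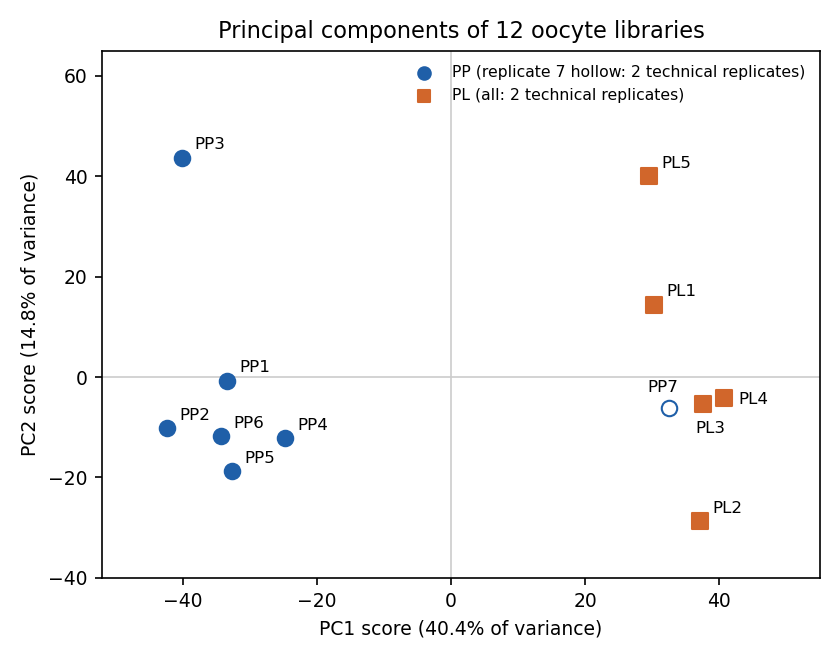
Scores of the 7 PP (circles) and 5 PL (squares) libraries on PC1 (x axis, 40.4% of the variance) and PC2 (y axis, 14.8%), from log2 CPM of the 500 most variable genes. PP replicate 7, drawn hollow, scored 32.4 on PC1, between the PL scores of 29.6 and 40.7, and the other 6 PP libraries scored -24.8 or less.

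By edgeR's quasi-likelihood test 244 of 10782 genes differed between PL and PP oocytes, 2.26% of those tested, where a call needed a fold change above 1.5 and a Benjamini-Hochberg adjusted p below 0.1. Of these, 157 were higher in PL (1.46% of those tested) and 87 were lower (0.807%). Before adjustment 1585 genes had a p below 0.05, and the median log2 fold change of PL over PP over all tested genes was 0.01. The genes higher in PL were scarce in PP oocytes, with a median over genes of 9.01 normalized counts in PP and 99.9 in PL, against 170.8 in PP over all genes tested. The genes lower in PL were abundant in PP, with a median of 733.7 normalized counts in PP and 109.2 in PL. These levels come from the counts that made the calls, so the contrast follows in part from the choice of genes. The PL and PP libraries did not overlap in 235 genes, 2.18% of those tested, and 102 of these were among the 244. The number of calls rested on single libraries. It was 87 without PL replicate 3, 76 without PL replicate 4, 96 without PL replicate 5, and 459 without PL replicate 2. It was 156, 131, 145 and 120 without PP replicates 1, 2, 5 and 6, and 552 without PP replicate 7. In each of the 12 fits that left out 1 library 63 of the 244 genes were called, 48 of them higher in PL and 15 lower. With libraries of a shared stem summed, which leaves 3 PL and 6 PP units, 10 genes were called, all higher in PL, and every gene described as lower in PL lost its call (831 genes had an unadjusted p under 0.05).

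A set of 10 genes higher in PL was called in every alternative fit except those that use the note of 2 technical replicates, as a covariate or as a choice of libraries. They were chosen after their values had been seen. Sbene_G23402 was also called in those and thus in all 21 fits. It had 1061, 784, 1667, 2095 and 1149 normalized counts in PL replicates 1 to 5, and 29.8 at the lowest, 70.6 at the median and 116.8 at the highest in PP. No PP library came near a PL library, and PP replicate 7, at 34.8, was the second lowest PP library. On the log2 scale PL minus PP was 4.29 (SE, the standard error, 0.43, edgeR adjusted p = 4.13e-06, between 1.07e-20 and 0.0879 over the alternatives). In LL oocytes the gene had from 864.9 to 4737 normalized counts (median 1510), a range that held 4 of the PL values.

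Sbene_G25841 carries the annotation Transposon Tf2-9 polyprotein, a name of the gag and pol product of a retrotransposon of fission yeast. Its normalized count was 77.2, 258.7, 256.2, 286.9 and 141.7 in PL replicates 1 to 5, while PP libraries had from 0 to 3.85 with a median of 0. PP replicate 7 had no count of it. Transposons often have near-identical copies among which reads can be divided, so the level is uncertain, as are those of the zinc finger and Notch genes below. The gene had the smallest adjusted p of the comparison after Sbene_G23402, with a log2 fold change of 7.38 (SE 0.84, edgeR adjusted p = 2.81e-05, between 5.00e-21 and 0.111 over the alternatives). LL oocytes had from 44.3 to 502.2 normalized counts of it, and the PL values lay inside that range. The study singled the gene out from these same libraries as exclusive to LL between the morphs and high in F1 oocytes. Its rise here is therefore not independent evidence.

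Sbene_G17407 was the most abundant of the 10. It had 9891, 8213, 5027, 3574 and 7067 normalized counts in the PL libraries, and from 164.4 to 1003 in PP with a median of 320.7. The groups did not overlap, with PP replicate 7 the second highest PP library at 805.9. PL exceeded PP on the log2 scale by 3.81 (SE 0.50, edgeR adjusted p = 2.08e-04, up to 0.855 over the alternatives). Sbene_G21394 followed, with a mean of 2661 ± 1467 normalized counts in PL (SD, n = 5) and 421.5 ± 172.7 in PP (SD, n = 7), a log2 fold change of 2.67. Sbene_G00728 had 398.5 ± 184.6 in PL and 98.0 ± 39.4 in PP (SD, n = 5 and 7), a log2 fold change of 2.04, and its PL libraries, but for replicate 2, lay below the LL range of 552.2 to 1644. Sbene_G00796 had from 112.7 to 244.4 normalized counts in PL and from 0 to 14.4 in PP.

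Sbene_G23835 was the steadiest of these genes among the hybrid clutches. Its 5 PL libraries lay between 29.2 and 34.7 normalized counts, while PP held 3 counts in all and none in replicate 7. Scaled by library, the pooled ratio was 107.6, with a 95% interval for counting error of 36.1 to 527.8. Sbene_G07240 had from 14.7 to 42.4 normalized counts in PL and at most 1.24 in PP. Sbene_G04942 divided the PL clutches, since replicate 4 had 54.5 normalized counts, within the PP range of 17.7 to 77.1, and the other 4 had from 698.9 to 3136.

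**Figure D2:**
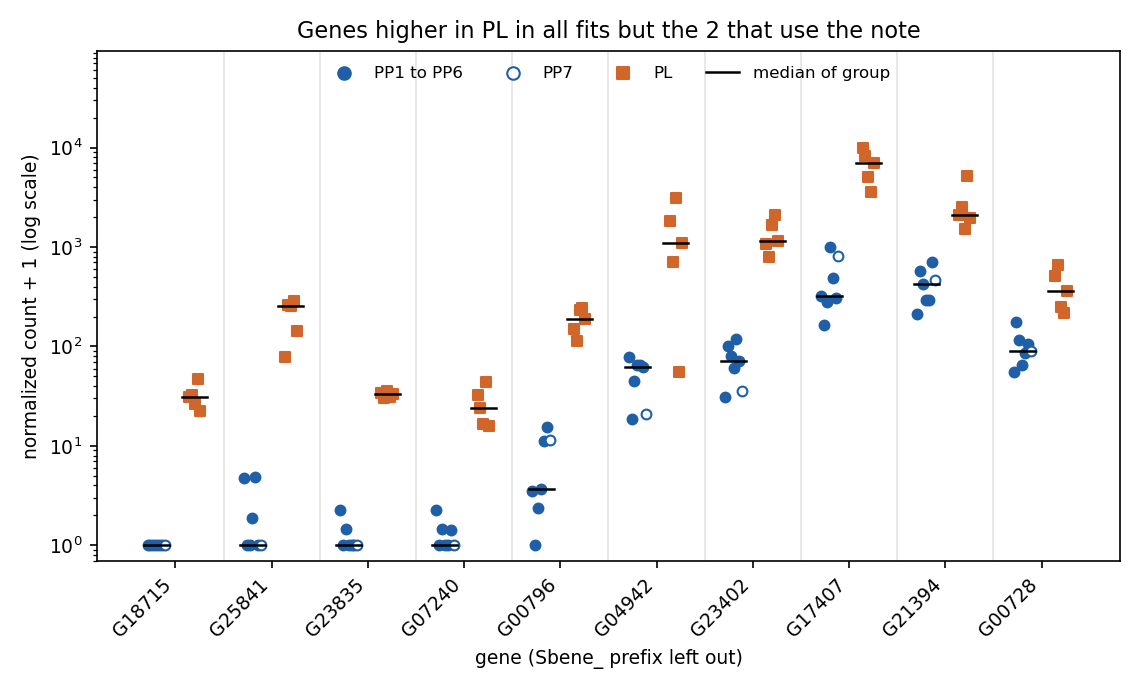
Normalized count plus 1 (y axis, log scale) of the 10 genes higher in PL in every fit but those that use the note of 2 technical replicates, 1 point per library and a bar at the group median. PP replicate 7, drawn hollow, lies with the other PP libraries in each gene, and the single PL point within a PP range is replicate 4 of Sbene_G04942, at 54.5.

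Several transcripts of PL oocytes had no count in any PP library. This held for 15 of the 157 genes higher in PL and for 25 of the 10782 tested, which could pass the filter on low counts only through the other groups. Sbene_G18715, the tenth of the genes above, had 29.8, 31.3, 25.5, 46.5 and 21.5 normalized counts in PL replicates 1 to 5 and none in the 7 PP libraries. With PP set at the 3 counts that 0 allows over the group, it was at least 91.0-fold higher in PL (edgeR adjusted p = 3.08e-04, up to 0.307 over the alternatives). LL libraries ranged from 0 to 31.7 normalized counts of it with a median of 14.1, so not every LL clutch carried it. Sbene_G13204 had from 22.6 to 38.0 normalized counts in PL and none in PP, at least 100.4-fold higher, while most LL libraries were at 0 too. Sbene_G00955 (from 3.07 to 40.4 in PL) and Sbene_G03298 (from 4.29 to 18.8 in PL) were at least 42.6-fold and 28.9-fold higher than in PP, where neither had a count. The call of Sbene_G03298 was lost when PL replicate 3, 4 or 5 or PP replicate 1, 2, 5 or 6 was left out. Sbene_G09818 had 1 count in PP, in replicate 2, and from 1.84 to 82.4 normalized counts in PL, a pooled ratio of 201.5 with a 95% interval for counting error of 35.3 to 8044. Sbene_G06535 had from 12.3 to 75.1 in PL against at most 1.48 in PP, that highest PP value being in replicate 7.

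Sbene_G21083 and Sbene_G16581 were, with Sbene_G17407, the 3 most abundant of the genes without overlap that were higher in PL. Sbene_G21083 had from 5184 to 6472 normalized counts in PL and from 1618 to 4144 in PP, where replicate 7 was second highest at 4086. The log2 ratio of PL to PP was 1.04 (SE 0.23, edgeR adjusted p = 0.0290, up to 0.855 over the alternatives). Sbene_G16581 had from 2241 to 3758 in PL and from 1217 to 2207 in PP, a log2 fold change of 0.82. In both, the lowest PL library stood above the highest PP library. The call of Sbene_G16581 was lost without PL replicate 3.

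Of the 87 genes lower in PL 19 had libraries that did not overlap. Sbene_G05444 was among those with a wide gap, with 38.6, 8.34, 21.9, 20.2 and 21.5 normalized counts in PL and from 98.6 to 631.7 (median 227.4) in PP. PP replicate 7, at 123.1, was the second lowest PP library and still far above PL. On the log2 scale PL minus PP was -3.62 (SE 0.86, edgeR adjusted p = 0.0441, between 1.39e-04 and 0.855 over the alternatives). LL oocytes had from 2.77 to 88.2 normalized counts of it, and LP oocytes from 59.1 to 740.4. The PL libraries thus lay within the LL range and below every LP library. Sbene_G22506 fell by 5.28 on the log2 scale, with from 0 to 9.20 normalized counts in PL, but PP replicate 7 had 10.4 and the other PP libraries from 43.9 to 697.7. Sbene_G01979 had at most 5.26 in PL and from 5.33 to 521.2 in PP, a separation as narrow as those 2 bounds. The calls of Sbene_G05444 and Sbene_G22506 were lost when PL replicate 3, 4 or 5 was left out, that of Sbene_G22506 also without PP replicate 2, and Sbene_G01979 was called only without PP replicate 4 or 7 among those fits.

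The remaining genes of the 8 that fell most without overlap had smaller and more even differences. Sbene_G19936 fell by 2.24, Sbene_G07138 by 1.61, Sbene_G04677 by 1.49, Sbene_G06188 by 1.45 and Sbene_G13648 by 1.34 on the log2 scale. Sbene_G06188 had from 93.0 to 224.5 normalized counts in PL and from 278.0 to 564.0 in PP, with replicate 7 the lowest of PP. In Sbene_G13648 replicate 7, at 326.2, lay inside the PP range of 279.8 to 422.9, and PL ranged from 94.9 to 200.3. The most abundant of the genes without overlap that were lower in PL were Sbene_G19696, with from 3209 to 5165 normalized counts in PL and from 5180 to 9504 in PP, Sbene_G12198 and Sbene_G17993. These 3 fell by 0.85, 0.86 and 0.83 on the log2 scale. Without PL replicate 4 the calls of Sbene_G04677, Sbene_G19696, Sbene_G13648 and Sbene_G17993 were lost, and without PL replicate 3 those of the last 3. Sbene_G13648 was also lost without PL replicate 5 or PP replicate 2, 4, 5 or 6, and Sbene_G17993 without PL replicate 1 or 5 or PP replicate 1, 2 or 5.

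The largest negative fold changes belonged to genes that PP replicate 7 lacked as well. A set of 7 genes had no count in any of the 13 libraries with the note of 2 technical replicates, whatever their genotype, and more than 50 normalized counts in all 11 without it. All 7 were called lower in PL. Sbene_G10774 had from 11785 to 59699 normalized counts in PP replicates 1 to 6, from 40200 to 76200 in LL replicates 1 to 5, and 0 in PP replicate 7, in all PL and LP libraries and in LL replicates 6 and 7. Against PL it was at least 44980-fold higher in PP. With the note as a covariate PL and PP cannot be compared in these 7 genes, since every library with the note is at 0. A beta-Actin, Sbene_G10277, had from 364.0 to 1694 in PP replicates 1 to 6 and no count in replicate 7 or in PL. Its call was lost when PL replicate 3, 4 or 5 was left out. The others of the 7 were Sbene_G02080, Sbene_G10577, Sbene_G12146, Sbene_G10433 and Sbene_G17170. In all, 11 of the 87 lower genes had no count in any PL library, beside 30 of the 10782 tested. These could pass the filter on low counts only through the other groups. The rest of the 11, Sbene_G00733, Sbene_G03486, Sbene_G10523 and Sbene_G13718, were also at 0 in PP replicate 7 and in every LP library. Sbene_G04388 came close to the pattern of the 7, with from 8572 to 15513 normalized counts in PP replicates 1 to 6, 0.741 in PP replicate 7 and at most 10.4 in PL. Sbene_G00457 had from 5054 to 15230 in PP replicates 1 to 6, 209.8 in replicate 7 and from 135.9 to 532.0 in PL. For these genes PP replicate 7 showed the level of PL and not that of its own genotype. The opposite also occurred. Sbene_G09850, Sbene_G15066, Sbene_G19049 and Sbene_G20823 had at most 10 normalized counts in every library without the note and more than 50 in every library with it. In Sbene_G09850, PP replicate 7 had 703.6, PL libraries from 482.6 to 619.2 and PP replicates 1 to 6 at most 7.40, and none of the 4 was called between PL and PP.

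**Figure D3:**
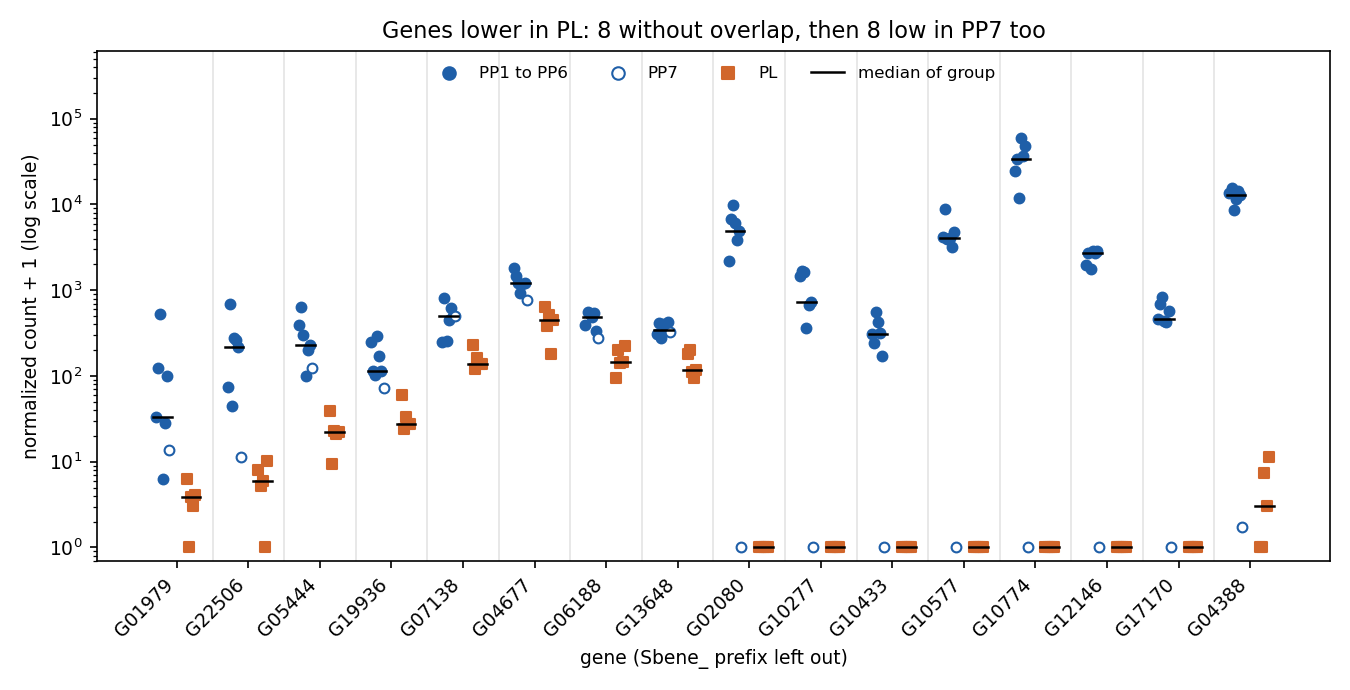
Normalized count plus 1 (y axis, log scale) of 16 genes lower in PL, 1 point per library and a bar at the group median. In the first 8, from Sbene_G01979 to Sbene_G13648, no library of PP overlaps PL, and in the last 8, from Sbene_G02080 to Sbene_G04388, PP replicate 7 (hollow) lies at or near 0 with the PL libraries.

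Over the 244 calls PP replicate 7 lay outside the PL range on the side of PP in 160 genes, which were 110 of the 157 higher in PL and 50 of the 87 lower. In the other 84 it lay within the range of the 5 PL libraries or beyond it. Among all genes tested it was on the PP side in 28.7%. PP replicate 7 had a part in those calls, so the fit without it was read as well. Of the 371 genes higher in PL in that fit, PP replicate 7 lay nearer the PL mean than the mean of the other PP libraries in 228, and of the 181 lower in PL, in 107. These are 60.7% of the 552 calls. The same reading was made for each other PP library left out in turn, a description chosen after the data had been seen. The left-out library lay nearer PL in 10.8% (replicate 6) to 26.1% (replicate 4) of the genes called without it, and in 46.2% for replicate 3, which was the deepest library.

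**Figure D4:**
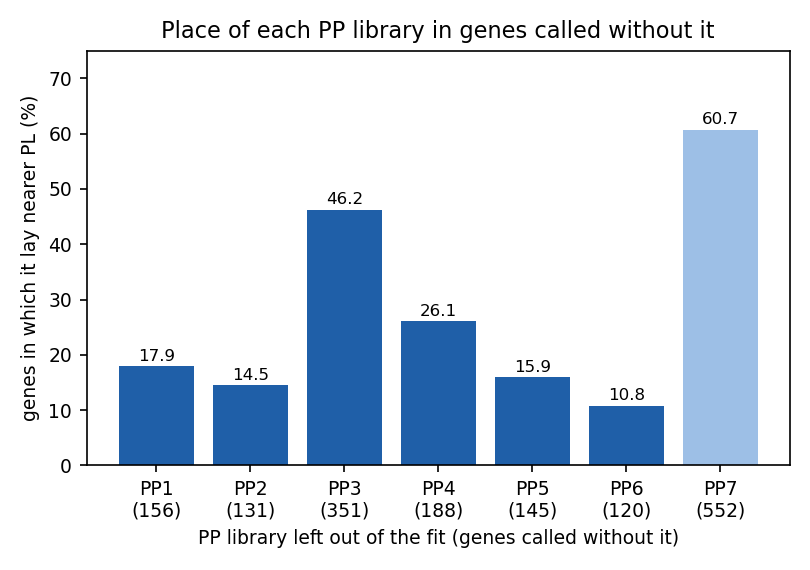
Share of genes (y axis, percent) in which a PP library left out of the fit lay nearer the PL mean than the mean of the other PP libraries on a log2 scale, for each of the 7 PP libraries (x axis, with the number of genes called without it). The bar of PP replicate 7 reaches 60.7%, that of replicate 3 reaches 46.2% and the other 5 end between 10.8% and 26.1%.

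When the note of 2 technical replicates entered as a covariate, edgeR called 4 of the 10782 genes, 0.0371%, and 1069 had an unadjusted p under 0.05. All 4 were among the 244. Sbene_G23402, Sbene_G25841 and Sbene_G18715 were higher in PL, with log2 fold changes of 3.30, 6.66 and 7.24 in that fit and adjusted p of 0.0681, 0.0681 and 0.0820. Sbene_G17415 was lower, with a log2 fold change of -2.68 (edgeR adjusted p = 0.0820) and -1.71 without the covariate. Its PL libraries had 752.5, 1214, 282.4, 258.6 and 246.5 normalized counts and PP from 652.6 to 3229 with a median of 1701, the highest being replicate 7. PP replicate 7 is the single PP library with the note in this fit. Without the covariate the call of Sbene_G17415 was lost when PL replicate 3, 4 or 5 or PP replicate 1, 2, 4 or 6 was left out. The fitted sign was kept in 237 of the 244 genes, and 166 had an unadjusted p under 0.05. That sign means nothing for genes at 0 in all libraries with the note, among them the 7 above. The 244 genes were chosen by the same contrast on the same libraries, so neither 237 nor 166 is separate evidence.

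The hybrid clutches did not all lie past the PP range in each called gene. Of the 157 genes higher in PL, 83 had all 5 PL libraries above every PP library, 48 had 4, 24 had 3 and 2 had 2. PL replicate 2 failed to pass the PP range in 46 of these genes, replicate 1 in 23, replicate 4 in 12, replicate 5 in 12 and replicate 3 in 9. Replicates 2 and 1 also had the fewest counts on genes of PL, 7489256 and 9629970, and the part of depth was not tested. Of the 87 genes lower in PL, 19 had all 5 PL libraries below every PP library and 20 had 0 of them below. Sbene_G16819, Sbene_G11295 and Sbene_G20530, chosen after their values had been seen, show such splits. Sbene_G16819, phosphoenolpyruvate carboxykinase (GTP), the enzyme that turns oxaloacetate into phosphoenolpyruvate at the start of gluconeogenesis, had 69965, 27073 and 16767 normalized counts in PL replicates 3, 4 and 5, the libraries with a shared stem. PL replicates 1 and 2 had 5523 and 2176, and PP ranged from 1383 to 4562. PL exceeded PP on the log2 scale by 3.39 (SE 0.57, edgeR adjusted p = 0.00420, up to 0.855 over the alternatives), and it was called in each of the 12 fits that left out 1 library. With the libraries of a shared stem summed the call was lost, at a log2 fold change of 2.71 (SE 0.60, edgeR adjusted p = 0.162). The most abundant transcript of the PL oocytes, Sbene_G11295, split the same way. It took 15.9%, 20.3% and 11.8% of the counts in PL replicates 3, 4 and 5, 5.54% and 3.16% in replicates 1 and 2, and from 1.81% to 6.84% in PP. The call for it was marginal, with a log2 fold change of 1.57 and an adjusted p of 0.0996 from edgeR, and was kept only without PL replicate 1 or 2 or PP replicate 7 among the 12 fits that left out 1 library. Sbene_G20530, proliferating cell nuclear antigen, the clamp that holds DNA polymerase on its template, split in another way. It had 205.2, 94.8 and 171.7 normalized counts in PL replicates 1, 3 and 4, but 2.09 and 2.45 in replicates 2 and 5, within the PP range of 0.462 to 10.7. LL libraries had from 161.6 to 398.7. The log2 ratio of PL to PP was 4.86 (SE 1.01, edgeR adjusted p = 0.0241, up to 0.855 over the alternatives). Its call too was lost with libraries of a shared stem summed (edgeR adjusted p = 0.183).

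**Figure D5:**
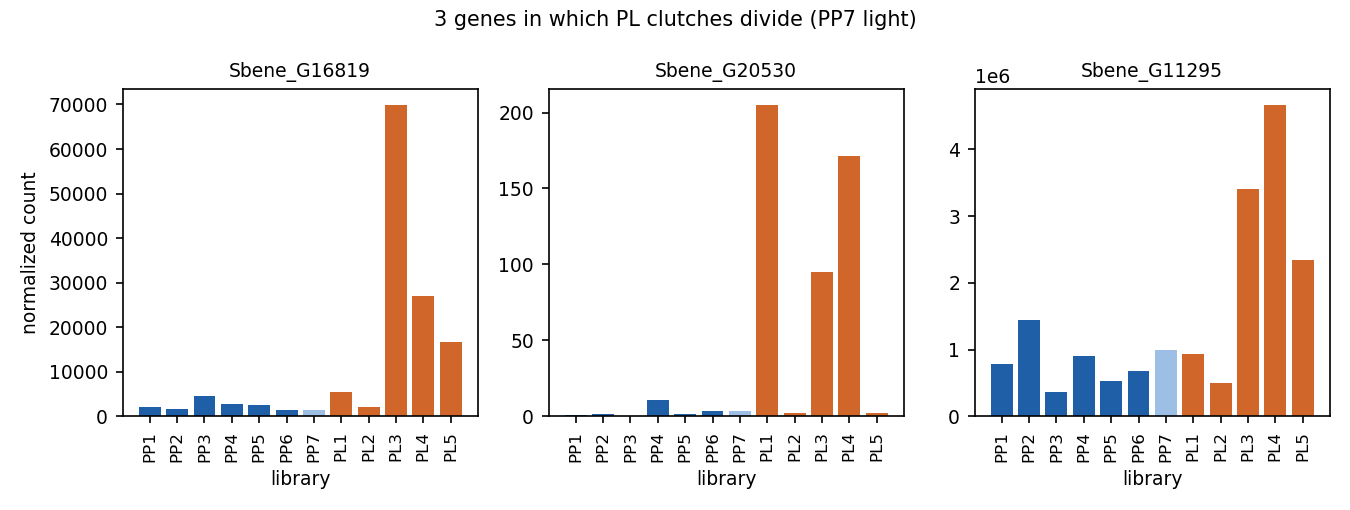
Normalized counts (y axes, linear from 0) of Sbene_G16819, Sbene_G20530 and Sbene_G11295 in each of the 7 PP and 5 PL libraries, with PP replicate 7 in a lighter shade. Sbene_G16819 reaches 69965 in PL replicate 3 and stays at 2176 in PL replicate 2, and Sbene_G20530 stays at 2.09 and 2.45 in PL replicates 2 and 5.

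Some transcripts all but absent from PP were missing from part of the PL clutches too. Sbene_G19777 had 422.7 normalized counts in PL replicate 1, at most 4.29 in the other PL libraries and none in PP. Sbene_G04862 had 26.2, 40.4 and 39.9 in PL replicates 3, 4 and 5 and none in replicates 1 and 2. Sbene_G05435 was absent from PL replicate 1 and Sbene_G14290 from PL replicate 4, and neither had a count in PP. In all 4 genes PP replicate 7, at 0, was within the PL range for that reason alone. Each lost its call in 8 to 10 of the 12 fits that left out 1 library, among them those without PL replicate 3, 4 or 5 and PP replicate 1, 2, 4, 5 or 6.

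Other calls with a name were found among zinc finger genes. Sbene_G22968, annotated as zinc finger protein 883-like, had 115.8, 31.3, 98.4, 84.8 and 71.8 normalized counts in PL and from 0 to 17.7 in PP, where replicate 7 had 9.64. On the log2 scale PL minus PP was 3.69 (SE 0.72, edgeR adjusted p = 0.0164, up to 0.855 over the alternatives). Sbene_G21844, annotated as a zinc finger protein 2 homolog, had at most 6.26 normalized counts in PL and from 3.73 to 186.9 in PP, and fell by 5.10 on the log2 scale. Sbene_G25792, annotated as zinc finger protein 271, had at most 40.3 in PL and from 32.8 to 883.0 in PP, and fell by 3.61. Both of those that fell lost the call without PL replicate 3, 4 or 5 or PP replicate 2, Sbene_G21844 also without PL replicate 1 and Sbene_G25792 also without PP replicate 6. The study listed these zinc finger genes for differences among these same libraries, so their direction here is not independent evidence. The same holds for any other named gene that the study listed for such differences, among them Sbene_G25841 and Sbene_G00916.

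Genes all but limited to PL or to PP, set against each other alone, were those with a mean under 10 normalized counts in one and over 150 in the other. The 4 limited to PL were the transposon annotated Sbene_G25841, Sbene_G00796, Sbene_G13848 and Sbene_G15883. This holds against PP only, since LL and LP libraries had counts of all 4. LL libraries had from 31.4 to 254.7 normalized counts of Sbene_G00796, 4.71 to 487.7 of Sbene_G13848 and 0 to 390.8 of Sbene_G15883. The highest LP values of these 3 were 275, 497.5 and 223.5. Sbene_G13848 was high in PL replicates 1 and 5, at 324.5 and 492.5, and at most 32.3 in the others. Sbene_G15883 had from 121.2 to 365.1 normalized counts in 4 PL libraries and 0 in replicate 1. Both Sbene_G13848 and Sbene_G15883 lost the call in 9 of the 12 fits that left out 1 library, among them those without PL replicate 3, 4 or 5 or PP replicate 1, 4, 5 or 6. There were 15 genes limited to PP. Among them 8 were the genes that PP replicate 7 lacked as well, Sbene_G10774, Sbene_G04388, Sbene_G02080, Sbene_G10577, Sbene_G12146, Sbene_G10277, Sbene_G17170 and Sbene_G10433. Others had a high PP mean from a few clutches. Sbene_G00916 had 1846 and 561.9 in PP replicates 1 and 3 and at most 15.7 in the other PP libraries, and PL had at most 4.95 (log2 fold change -7.26, edgeR adjusted p = 0.107, between 0.00342 and 0.943 over the alternatives). Sbene_G04522, adenylate cyclase type 2, which makes the messenger cyclic AMP, had 430.6, 291.5 and 349.9 in PP replicates 4, 5 and 7, at most 20.8 in the other PP libraries and at most 10.6 in PL (edgeR adjusted p = 0.110). Sbene_G12127, annotated as a hypothetical protein, was called lower in PL, at an adjusted p of 0.0920 from edgeR, and ranged from 2.57 to 917.5 in PP. It kept the call without PP replicate 2, 3, 4, 5 or 7 and lost it without any other library, and Sbene_G00916 was called without PP replicate 7. Without PP replicate 7 the genes limited to PL numbered 13, and without PP replicate 4 they numbered 7.

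Of 5 transcription and chromatin factors that the study names 4 were tested and 0 were called. With 2.26% of all genes called, so short a list can show no difference from the rest by its count. The list had 3 of the 4 log2 fold changes positive and a median of 1.17. By edgeR 0 of the 4 had an unadjusted p under 0.05, and DESeq2 called 0 of 5. The forkhead box gene Sbene_G06980 had from 4.04 to 35.1 normalized counts in PL and from 0 to 16.0 in PP (log2 fold change 2.07, edgeR adjusted p = 0.342). The polycomb gene Sbene_G10227, of the family that keeps genes silent through chromatin, had from 542.0 to 1306 in PL and from 250.5 to 1161 in PP (log2 fold change 0.58, adjusted p = 0.391). PP replicate 7 had the highest PP value of it. Kruppel-like factor 15, Sbene_G10036, had at most 8.08 normalized counts in PL and 6.45 in PP, and the paired-box gene Sbene_G17489 had a log2 fold change of -0.21. Visual system homeobox 2, Sbene_G05917, had 4 counts in each group and was not tested.

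Frizzled-5, a receptor of Wnt ligands, and 6 copies of Notch, the receptor of Delta and Serrate ligands, made a list of 7, of which 6 were tested and 0 called (5 positive, median log2 fold change 1.88), again too few to set against the 2.26% called over all genes. Frizzled-5, Sbene_G05398, had 28.1, 18.8, 110.4, 2.02 and 19.6 normalized counts in PL and at most 7.40 in PP, with none in replicate 7, and its log2 fold change was 3.82 (SE 1.26, edgeR adjusted p = 0.138, between 0.0322 and 0.855 over the alternatives). The Notch copy Sbene_G06517 had no count in PP and from 0 to 6.26 normalized counts in PL (edgeR adjusted p = 0.141). The most abundant Notch copy, Sbene_G09677, had from 191.9 to 513.2 in PL and from 46.0 to 522.1 in PP, where replicate 7 was the lowest. Before adjustment 3 of the 6 had a p below 0.05, all higher in PL, and DESeq2 called Sbene_G05398 and Sbene_G06517 higher.

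Among 4 reference genes 3 were tested. Glyceraldehyde-3-phosphate dehydrogenase, Sbene_G16356, a glycolytic enzyme, had from 65370 to 78578 normalized counts in PL and from 45980 to 120810 in PP (log2 fold change -0.02, standard error 0.16, edgeR adjusted p = 0.955). Beta-Tubulin Sbene_G04390 had a log2 fold change of 0.46 (SE 0.29, edgeR adjusted p = 0.471). Beta-Actin Sbene_G10277 was called lower in PL, with the values in PP replicate 7 given above.

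Non-coding genes took a small share of the counts and those called by edgeR were higher in PL. Of 5995 genes marked as non-coding 128 were tested, and by edgeR 8 were higher in PL and 0 lower, beside 1.46% and 0.807% of all genes tested. Before adjustment 35 were higher and 3 lower at a p below 0.05, and DESeq2 called 24 higher and 2 lower among 346 it tested, beside 456 and 340 of its 12719 genes. Their median log2 fold change was 1.21 over the 128, 95 of them positive, against 0.01 over all genes tested. Genes without a count in PP could pass the filter on low counts only through the other groups, PL among them. Sbene_nc_G06715, Sbene_nc_G10354, Sbene_nc_G11727 and Sbene_nc_G18923 were such genes. The signs and the median thus depend in part on the filter. Sbene_nc_G08662 had 54.4, 371.3, 20.5, 20.2 and 57.6 normalized counts in PL and from 0.622 to 16.3 in PP, the highest being replicate 7. Sbene_nc_G10824 had from 2.83 to 12.5 in PL and 1 PP library with a count. The other 6 were Sbene_nc_G06715, Sbene_nc_G10354, Sbene_nc_G11632, Sbene_nc_G11727, Sbene_nc_G18923 and Sbene_nc_G23688, and in 3 of the 8 PP replicate 7 lay within the PL range. Non-coding genes held 0.0204% ± 0.0107 of the counts in PL (SD, n = 5) and 0.00995% ± 0.00499 in PP (SD, n = 7), a difference of 0.0104 percentage points (exact permutation of the libraries, two-sided p = 0.0429, where 0.00253 is the least that 5 against 7 allows). PP replicate 7 had 0.0169%, and the ranges overlapped, at 0.0104% to 0.0355% in PL and 0.00586% to 0.0173% in PP. LL libraries held from 0.026% to 0.151%. The test rested on single libraries, with p between 0.0515 and 0.121 when PL replicate 1, 2 or 5 or PP replicate 1, 2, 3, 5 or 6 was left out.

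The reciprocal cross gave a comparison that shares no library with this one. All LP libraries carry the note of 2 technical replicates, and of LL only replicates 6 and 7 do. Genotype and note thus largely coincide there as well, and calls shared by both crosses cannot be told apart from the note. LP against LL, again a hybrid and its maternal morph, had 72 genes higher in LP (0.668% of those tested) and 53 lower (0.492%). Of the 157 genes higher in PL 1 was also higher in LP, and it was 1 of the 72. That gene, Sbene_G20762, had 1.75, 185.7, 126.0, 167.7 and 152.1 normalized counts in PL and a count in only 1 of the PP libraries. In LP its median was 0 and its highest value 343.5, so it was not high across the LP clutches, and LL had at most 1.80. Its call was lost without PL replicate 4. Of the 87 lower in PL 18 were also lower in LP, 20.7% of the first list and 34.0% of the 53. In 16 of these 18 PP replicate 7 lay within or beyond the PL range, the exceptions being Sbene_G22089 and Sbene_G22506. With the note as a covariate, which left 4 calls for PL against PP, 0 calls were shared. Sbene_G22089 had from 961.7 to 1149 normalized counts in PL, from 1245 to 3896 in PP and from 1300 to 4015 in LL, and LP ranged from 891.1 to 1263. It was lower in each hybrid group than in its maternal morph, and fell by 1.03 on the log2 scale from PP to PL and by 1.35 from LL to LP. In PP the lowest library was replicate 7, and with the note as a covariate the log2 fold change of PL over PP was -0.06. The call was lost without PL replicate 3, 4 or 5 or PP replicate 2.

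The change from PP to PL differed from that from LL to LP in 314 genes, 2.91% of those tested, and in 96 of the 244 calls. The 244 were chosen for their change from PP to PL, a term of this difference, so their larger share follows in part from that choice. Since this difference is also that of LL minus PP plus that of PL minus LP, it holds the difference between the morphs. PL and LP themselves differed in 2 genes, 0.0185% of those tested by edgeR, with 796 at an unadjusted p under 0.05. These were Sbene_G16819, the phosphoenolpyruvate carboxykinase gene, and Sbene_G12323. LP oocytes had from 864.3 to 2364 normalized counts of Sbene_G16819, below PL replicates 1, 3, 4 and 5 and reaching past PL replicate 2. Sbene_G12323 had from 538.2 to 1067 in PL and from 21.3 to 148.7 in LP, and its PL libraries lay inside the PP range of 263.2 to 1355.

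The range of PL was also set beside that of LL in the non-overlapping genes. The ranges met, that is, overlapped at least in part, in 80 of the 83 such genes higher in PL and in 17 of the 19 lower, against 98.5% of all genes tested. In 2 of the 83 genes higher in PL, Sbene_G11323 and Sbene_G23351, the PL libraries also stood above every LL library. In 1 of the 83, and in Sbene_G22089 and Sbene_G22506 of the 19 lower, they lay below every LL library. Among all genes tested PL stood above every LL library in 0.631% and below in 0.853%. Sbene_G11323 had from 64.6 to 98.2 normalized counts in PL, at most 19.3 in PP, with replicate 7 the highest, and at most 35.0 in LL. LP reached 94.8. Its log2 fold change over PP was 3.32 (SE 0.92, edgeR adjusted p = 0.0832), and 2.42 with the note as a covariate (edgeR adjusted p = 0.541). The gene was not among the 63 called in each fit that left out 1 library.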

How the data were processed

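The authors deposited counts per gene, whole numbers without normalization. Per the study's methods and the labels, reads were trimmed with Trim Galore, cleared of rRNA with SortMeRNA, aligned with HISAT2, strand set, to the planktotrophic reference, and assigned to genes with HTSeq-count. Versions are not given in the sources used here. Rows that name no gene were left out, and reads on genes made up 25.3% to 37.1% of each PL file and 12.9% to 35.6% of each PP file.

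Genes were tested with edgeR (version 4.0.16) in R (version 4.3.3): TMM, edgeR's filter on low counts, 4 group means over 24 libraries, the quasi-likelihood test, and adjustment after Benjamini and Hochberg. Thresholds were those of the study (fold change above 1.5, adjusted p below 0.1), which used DESeq2 (version 1.42.0 here) and RUVg. Levels are counts scaled by DESeq2's median of ratios, and principal components used log2 CPM with a prior count of 2. Bounds for genes at 0 used 3 counts over a group. Intervals and bounds cover counting error only. P-values measure the spread between clutches, some of which may be of related females.

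Genes were named by rule: the 8 largest fold changes in each direction without overlap, the 3 most abundant of these, the 4 largest with PP replicate 7 within or beyond the PL range, those also called with the note as covariate, genes limited to 1 group, genes in the study's text and 4 reference genes. Others are said to be chosen after their values were seen, including those called in both crosses or named for their annotation. Members and lists were chosen with earlier results of these data known. Alternatives were DESeq2, its size factors, no filter, other sets of libraries, the note as covariate, a replicate block, libraries of a shared stem summed, 1 factor by the method of RUVg with 1000 empirical control genes, an adjusted p of 0.05, other limits and each library left out. The fits were tested on simulated data. Allele-specific reads were not analysed here.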

Additional observations from a re-analysis of the deposited data

Results flagged for a closer look

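In 13 of 100 groups of values of a named gene, 1 library stood apart by Dixon's test on a log2 scale. Chance gives about 1 in 20 for genes not chosen by their values. Many of these genes were named for their values in these libraries, so that rate is no baseline here. Sbene_G10774, Sbene_G02080, Sbene_G10577 and Sbene_G12146 were named because PP replicate 7 lay within the PL range. PP replicate 7 was that library in Sbene_G10774, Sbene_G02080, Sbene_G10577, Sbene_G12146 and Sbene_G10277, each at 0, and in Sbene_G04388, at 0.741 normalized counts. PL replicate 1 stood apart in Sbene_G17993 (2210), Sbene_G19777 (423), Sbene_G15883 (0) and Sbene_G10227 (542). PP replicate 2 stood apart in Sbene_G09818 (1.61) and Sbene_G15883 (19.3), and PP replicate 6 in Sbene_G04862 (0.436).

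The log2 change from PP to PL was set against that from LL to LP, tested in edgeR as the difference of both contrasts. It differed in 19 of the called genes checked at first, a list that left out some genes described above. Most were named for their change from PP to PL, which is a term of that difference. The difference was positive in Sbene_G18715 (7.99), Sbene_G25841 (7.10), Sbene_G00955 (6.08), Sbene_G09818 (7.18), Sbene_G03298 (8.21), Sbene_G23835 (8.36), Sbene_G17407 (5.36), Sbene_G16581 (0.91), Sbene_G05435 (10.9), Sbene_G04862 (13.5), Sbene_G23402 (5.49) and Sbene_G00796 (4.03). It was negative in Sbene_G05444 (-6.51), Sbene_G07138 (-2.09), Sbene_G04677 (-1.61), Sbene_G06188 (-1.64), Sbene_G13648 (-1.91), Sbene_G19696 (-1.05) and Sbene_G17415 (-2.88). Values of genes without a count in a group depend on the prior count and are no bounds.

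Reads set aside for low alignment quality made up 7.86%, 7.82%, 7.42%, 8.40% and 7.64% of the reads in PL replicates 1 to 5, above every PP library (2.29% to 6.27%, the highest being replicate 7). The means differed by 3.35 percentage points (two-sided exact permutation test, p = 0.00379, with 5 and 7 libraries). Over the series the share followed the note of 2 technical replicates, at 6.27% to 8.85% in the 13 libraries with it and 2.29% to 5.74% in the 11 without. The p-value therefore cannot part genotype from the note. The part of low alignment quality in the calls was not tested.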

How the results depend on the processing

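The 244 calls (157 higher in PL, 87 lower) became 80 (59 and 21) at an adjusted p of 0.05, 796 (456 and 340) with DESeq2's Wald test, 69 (42 and 27) with only the PL and PP libraries in the fit, 4 (3 and 1) with the note as a covariate, 2 (2 and 0) with only the 13 libraries that carry it, where PP is replicate 7 alone and is assumed to vary like the other groups, and 10 (10 and 0) with libraries of a shared stem summed. Where no gene was lower, unadjusted p under 0.05 numbered 632 and 831 genes in either direction. The median log2 fold change over all genes, 0.01, was 0.11 with DESeq2 and 0.20 with the 13 libraries. With 1 RUVg factor 237 genes were higher. A replicate block gave 655 calls (457 and 198), but the numbers only name the libraries: deviations of PL and PP libraries of 1 number correlated between -0.154 and 0.109, and no PL library correlated best with its own number. Leaving out 1 library gave 76 to 552 calls, 61 to 371 higher and 15 to 239 lower, 58 to 375 with PP replicate 7 on the PP side, 54 to 314 without overlap, 4 to 13 genes limited to PL, and a non-coding difference of 0.00661 to 0.0129 points. That difference was 0.00701 (exact permutation p = 0.0745) over genes past the filter. Limits of 100 and 200 gave 12 and 1 genes limited to PL, and 100 gave 23 limited to PP. Calls shared by both crosses, 19 above, were 49 with DESeq2 and 0 with the covariate, and DESeq2 called 877 differences between the crosses. The median distances of PP replicate 7, 1.48 from PL and 1.56 from PP, were 2.97 and 3.99 over the 500 most variable genes and 0.844 and 0.847 after the variance stabilizing transformation. The log2 fold change turned positive for Sbene_G04388 with the covariate (3.95) and among the libraries with the note (2.30). The fitted values of Sbene_G10774 (0.39, SE 4585) and Sbene_G10277 (1.36, SE 5561) with the covariate are no estimates, since all libraries with the note are at 0. The cause was not tested. Of 1082 values of named genes under an alternative 847 stayed on their side of the threshold and 223 lost the call.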
